A study of Mus musculus with 8 samples.

Results

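Hox genes encode homeodomain transcription factors that tell cells along the head-to-tail axis and along the limb which position they hold. In mammals they lie in 4 clusters, HoxA to HoxD, in which the order of the genes follows the order in which they are used in the embryo, from anterior genes with low paralogue numbers to posterior genes with high numbers. Cells taken from different parts of the adult body, stromal cells of bone among them, keep their own pattern of active Hox genes in culture, and DNA methylation and Polycomb complexes are among the systems known to hold Hox genes silent. The members described here were all genes of the table whose symbol is Hoxa, Hoxb, Hoxc or Hoxd followed by a number: 39 of 24346 genes, of which 11 belong to HoxA, 10 to HoxB, 9 to HoxC and 9 to HoxD. In the mm10 build, the HoxA genes from *Hoxa2* to *Hoxa13* span 52162417 to 52260880 on chromosome 6, the HoxB genes 96194316 to 96368256 on chromosome 11, the HoxC genes 102921103 to 103036852 on chromosome 15 and the HoxD genes 74668310 to 74765142 on chromosome 2.

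The cells were mesenchymal stem or stromal cells (MSCs), plastic-adherent stromal cells with the capacity for bone, fat and cartilage fates. They came from the femur and tibia of female mice of 8 to 16 weeks on a C57BL/6 background. WT mice were littermates of the *Dnmt3l* KO mice, which carried the tmEnls allele in homozygous form and came from heterozygous parents. *Dnmt3l* encodes a catalytically inactive partner of the de novo DNA methyltransferases, and the allele was carried by every cell of a KO mouse, not only by its MSCs. Cells of 3 mice were mixed for each genotype, depleted of CD11b and CD45 positive cells and used at passage 4. They were either undifferentiated or had spent 3 days in osteogenic medium with 0.1 µM dexamethasone, 10 mM β-glycerophosphate and 50 µM ascorbic acid 2-phosphate (differentiating). Total RNA without ribosomal RNA was sequenced in 2 libraries for each of the 4 groups. The labels do not say whether the 2 libraries came from separate mixes, so the p-values measure only the spread between these libraries, which may be technical. The values are RPKM, the reads on a gene scaled to its transcript length and to the mapped reads of the library.

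*Dnmt3l* itself ranged from 0.830 to 1.56 RPKM in the WT libraries and was listed at 0 in all 4 KO libraries. The paper reports that the WT reads lay only on later exons of the gene. It did not detect the canonical DNMT3L protein in cultured MSCs. *Actb*, a gene of every cell, was also listed at 0 in both undifferentiated KO libraries, so an exact 0 in this table need not be a measured absence. The MSC markers were present in all libraries, with *Ly6a* between 471 and 2603 RPKM and *Pdgfra* between 20.4 and 154 RPKM. Of the 12, 5 were higher and 3 lower in undifferentiated KO than in WT MSCs, against 14.7% and 17.5% of all tested genes. Of 13 leukocyte markers, *Ptprc* (CD45) stayed at or under 0.127 RPKM, but *Lyz2* was at 12.8 to 13.4 RPKM in undifferentiated WT and 22.9 to 26.5 RPKM in differentiating WT against 3.19 to 3.43 and 6.81 to 7.66 RPKM in the KO groups. Without *Cd34* and *Kit*, the leukocyte markers summed to 20.6 to 21.6 RPKM in undifferentiated WT, 33.1 to 37.8 RPKM in differentiating WT, 10.1 to 11.1 RPKM in undifferentiated KO and 14.2 to 15.2 RPKM in differentiating KO MSCs. With all 13 genes the ranges were 21.8 to 23.0, 82.6 to 87.7, 11.3 to 12.2 and 138 to 153 RPKM. Among 8 endothelial markers, *Pecam1* and *Cdh5* stayed at or under 0.0843 RPKM and *Tie1*, *Emcn* and *Vwf* at or under 0.206 RPKM. *Tek* was at 0.358 to 0.686 RPKM in undifferentiated and 1.93 to 4.13 RPKM in differentiating MSCs. *Kdr* reached 0.584 RPKM and *Esam* 1.18 RPKM. Of 7 muscle markers *Acta1*, an actin of muscle, was at 33.9 to 48.2 RPKM in undifferentiated and 1.64 to 4.00 RPKM in differentiating MSCs. *Des* was at 0.746 to 1.73 RPKM, and *Myod1*, *Myf5*, *Myog*, *Pax7* and *Myh3* stayed at or under 0.0457 RPKM. *Ibsp*, a bone matrix gene, rose with induction in both genotypes (log2 fold change 3.78 in WT and 4.11 in KO). In differentiating MSCs it was at 661 to 729 RPKM in WT and 313 to 386 RPKM in KO. *Sp7*, another of the osteoblast genes, went from 7.28 and 7.84 to 3.12 and 3.11 RPKM in WT. In KO it went from 7.76 and 8.63 to 1.36 and 1.69 RPKM. Of the 8 osteoblast genes looked at, 2 rose and 2 fell in WT, against 31.6% and 32.8% of all tested genes. In KO 1 rose and 5 fell, against 36.4% and 36.6%. Between genotypes, 1 of the 8 was higher and 3 lower in undifferentiated KO, against 14.7% and 17.5%. In differentiating KO 0 were higher and 7 lower, against 17.8% and 22.9%. In bulk RNA, fewer cells of a type and less RNA per cell cannot be told apart.

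Posterior Hox genes made up most of the Hox RNA in these hindlimb bone marrow cells. *Hoxa10*, a posterior HoxA gene that patterns the proximal limb skeleton, was the highest of the 39 members, with a mean of 18.4 RPKM over the 8 libraries, and its lowest library (14.8 RPKM) lay above the highest value of any other member (9.58 RPKM, *Hoxc10*). After it came *Hoxc10* (8.32 RPKM), *Hoxd8* (7.66 RPKM), *Hoxa9* (7.02 RPKM), *Hoxc9* (6.52 RPKM), *Hoxc6* (6.29 RPKM) and *Hoxa11* (5.42 RPKM), and the ranges of neighbours in this list overlapped over the libraries. Paralogues 9 to 13 took 59.5 to 67.2% of the summed Hox RPKM of a library, paralogues 4 to 8 took 29.3 to 34.4% and paralogues 1 to 3 took 3.49 to 6.58%. Hox genes were modest in level among expressed genes, with a median of 1.28 RPKM over 37 members above 0 against 3.29 RPKM over all 20022 genes above 0.

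**Figure D1:**
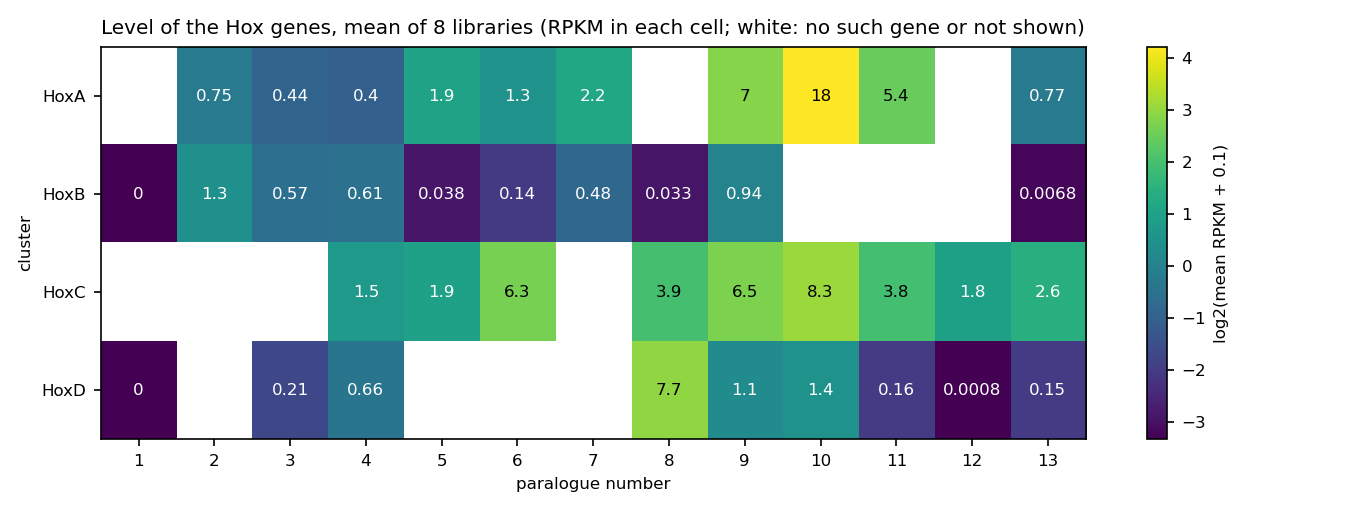
Mean level of the Hox genes over the 8 libraries (1 HoxA gene not shown), with clusters as rows and paralogue numbers as columns; color gives log2(mean RPKM + 0.1) and the number in each cell the mean RPKM. The highest cells lie at paralogues 9 to 11 of HoxA, at paralogues 6 and 8 to 11 of HoxC and at *Hoxd8*, while HoxB stays at or under 1.28 RPKM.

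The clusters differed in level. The HoxA genes summed to 40.0 ± 0.625 RPKM in undifferentiated WT MSCs (SD, n = 2) and the HoxC genes to 33.0 ± 0.794 RPKM, against 10.9 ± 0.821 RPKM for HoxD and 6.24 ± 0.317 RPKM for HoxB. HoxD was carried by 1 gene: *Hoxd8* stood at 7.66 RPKM, and the next HoxD genes, *Hoxd10* and *Hoxd9*, at 1.37 and 1.14 RPKM. Within HoxB the highest members were *Hoxb2* (1.28 RPKM), *Hoxb9* (0.937 RPKM) and *Hoxb4* (0.611 RPKM). At the ends of the clusters, *Hoxb1* and *Hoxd1* were listed at 0 in all 8 libraries, *Hoxd12* was above 0 in 1 library and *Hoxb13* in 3. At the estimated depth, 3 reads on *Hoxd1* would have given 0.0270 to 0.0374 RPKM, so lower levels could not be seen, and this floor covers counting error only. *Hoxb5* and *Hoxb8*, at means of 0.0376 and 0.0334 RPKM, also lay under the minimum mean of 0.1 RPKM, which left 33 of the 39 members in the tests: 11 of HoxA, 6 of HoxB, 9 of HoxC and 7 of HoxD.

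Some Hox genes overlap each other, and the sharing of reads between them makes their values uncertain. The RefSeq gene bodies of *Hoxa3* overlap those of *Hoxa4*, *Hoxa5* and *Hoxa6*, and the pairs *Hoxb3* and *Hoxb4*, *Hoxd3* and *Hoxd4*, and *Hoxd10* and *Hoxd11* also overlap, by 3372, 7183 and 2744 bases. In the GENCODE annotation, exons of *Hoxd3* and *Hoxd4* share 388 bases and those of *Hoxc5* and *Hoxc10* share 166 bases.

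The promoters of 4 members whose change with induction differed between the genotypes are shown, since *Dnmt3l* acts in DNA methylation, for which CpG sites are the substrate; methylation was not measured in these libraries. Each runs from 250 bases before to 50 bases after a RefSeq start (build GRCm38.p6), 5′ to 3′ on the strand of the gene, with every CpG in capitals. *Hoxa9* (chromosome 6, 52227321 to 52227620, minus strand), *Hoxa10* (the start at 52234890 to 52235189 of its 2, minus strand), *Hoxa11* (52245761 to 52246060, minus strand) and *Hoxd8* (chromosome 2, 74704365 to 74704664, plus strand) read as follows.
Hoxa9: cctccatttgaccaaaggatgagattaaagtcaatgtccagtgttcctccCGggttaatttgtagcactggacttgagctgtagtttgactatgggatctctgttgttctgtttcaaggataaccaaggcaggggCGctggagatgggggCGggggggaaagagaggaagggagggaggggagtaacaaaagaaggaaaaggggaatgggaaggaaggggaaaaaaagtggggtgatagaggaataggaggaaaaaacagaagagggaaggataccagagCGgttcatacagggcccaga
Hoxa10: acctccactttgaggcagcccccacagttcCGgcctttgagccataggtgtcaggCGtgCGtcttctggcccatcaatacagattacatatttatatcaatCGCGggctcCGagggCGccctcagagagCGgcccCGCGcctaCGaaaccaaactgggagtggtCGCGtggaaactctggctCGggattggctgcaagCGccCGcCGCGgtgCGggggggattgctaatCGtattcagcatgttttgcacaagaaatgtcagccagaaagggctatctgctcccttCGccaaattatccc
Hoxa11: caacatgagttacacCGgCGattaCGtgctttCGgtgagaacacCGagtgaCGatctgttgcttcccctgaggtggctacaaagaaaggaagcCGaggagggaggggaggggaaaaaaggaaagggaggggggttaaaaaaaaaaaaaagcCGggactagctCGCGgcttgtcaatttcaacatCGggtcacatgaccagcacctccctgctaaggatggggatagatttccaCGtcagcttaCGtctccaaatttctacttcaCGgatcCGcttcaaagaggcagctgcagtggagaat
Hoxd8: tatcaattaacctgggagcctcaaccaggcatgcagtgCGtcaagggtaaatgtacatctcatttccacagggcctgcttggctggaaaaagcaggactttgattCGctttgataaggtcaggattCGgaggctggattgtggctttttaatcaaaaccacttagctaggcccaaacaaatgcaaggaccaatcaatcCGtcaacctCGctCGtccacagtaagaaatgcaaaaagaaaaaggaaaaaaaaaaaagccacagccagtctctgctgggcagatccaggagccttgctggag

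These windows held 4 CpG sites in *Hoxa9*, 21 in *Hoxa10*, 15 in *Hoxa11* and 6 in *Hoxd8*. The other *Hoxa10* start, not shown, held 12. No promoter was matched for most HoxB and HoxC members, among them *Hoxc8*, *Hoxc12* and *Hoxc13*. The Hox values that follow therefore rest mostly on HoxA and HoxD. Promoters were matched for 22 of the 39 members (24 promoters), with a median of 14.5 CpG sites and a range of 4 to 45, against a median of 7 over all 32851 promoters. The letters CCAAT, the box bound by NF-Y, were found on either strand in 62.5% of the Hox promoters and 37.4% of all promoters, and TATAAA in 16.7% and 13.6%. TGACAG, the core letters bound by MEIS and other TALE cofactors of Hox proteins, were in 8.33% of the Hox promoters and 19.2% of all. AGAACA, part of the element bound by the glucocorticoid receptor, which dexamethasone activates, was in 8.33% and 19.0%, and the *Hoxa9* and *Hoxa11* windows were the 2 that held it. A match is a description of the letters and not of a bound site.

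The first comparison asked which Hox genes differed between *Dnmt3l* KO and WT MSCs before induction. Of the 33 tested members, 5 were higher and 5 lower in undifferentiated KO MSCs (adjusted p under 0.05, limma with Benjamini-Hochberg adjustment over all genes), against a background of 14.7% of all 15342 tested genes called higher and 17.5% called lower, so Hox genes were called about as often as other genes. None changed by more than 2-fold with an adjusted p under 0.05 (the DEG rule), where 1.7% of all genes did. Leaving out 1 library lowered the 10 calls to 3 or 2 (undifferentiated WT replicate 1 or 2) and to 2 or 4 (undifferentiated KO replicate 1 or 2). Within HoxB, HoxC and HoxD, where 4, 3 and 2 members passed, the signs were mostly alike. Genes of a cluster were measured in the same libraries, so their signs are not independent. All 6 tested HoxB members had negative log2 fold changes, with a median of -0.51, all 9 HoxC members positive ones, with a median of 0.24, and 6 of 7 HoxD members positive ones, with a median of 0.38, while HoxA was split, with 6 positive and 5 negative. Some of these values lay within their standard error of 0, such as *Hoxb6* (-0.32 ± 0.37), *Hoxc12* (0.06 ± 0.14) and *Hoxd9* (0.03 ± 0.18). Across 17 other settings 8 or 9 HoxC members were positive. The calls of *Hoxc5*, *Hoxc9* and *Hoxc13* were lost in 3, 4 and 9 of these settings. Over all 33 members the median was 0.16, and over all genes it was 0.00 to 2 decimals.

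In differentiating MSCs, 7 members were higher and 7 lower in KO, against 17.8% and 22.9% of all genes, and again none was a DEG, where 3.3% of all genes were. Fitted on the 4 differentiating libraries alone, 7 of the 14 passed, and without differentiating WT replicate 1, WT replicate 2 or KO replicate 2 the count was 9, 8 or 9. The 6 HoxB members were negative here too (median -0.54), and the same 4, *Hoxb2*, *Hoxb3*, *Hoxb7* and *Hoxb9*, passed the test as in undifferentiated MSCs. The 2 comparisons use different libraries, but they were fitted in 1 model with a shared variance, and whether the cells of both states came from the same mixes is not stated. All 7 HoxD members were positive (median 0.51), 10 of 11 HoxA members were positive (median 0.20), and HoxC was split, with 6 positive and 3 negative.

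**Figure D2:**
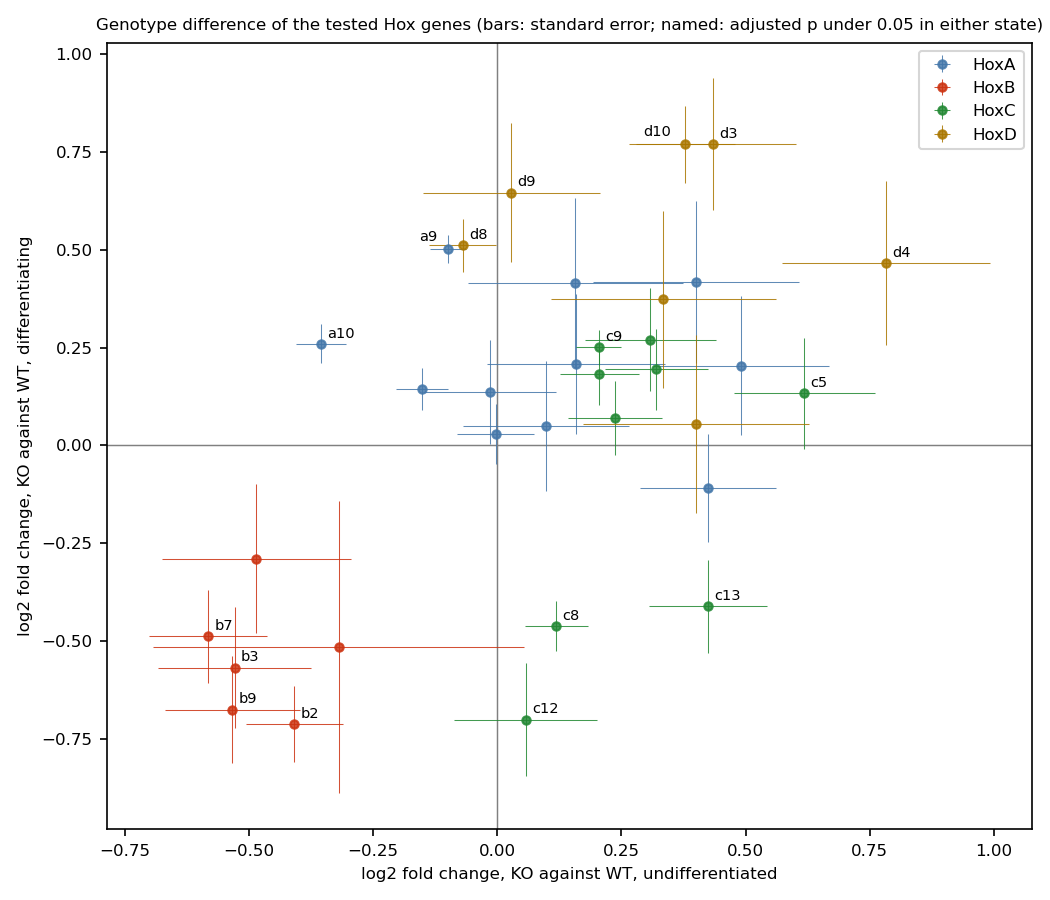
Log2 fold change of KO against WT in undifferentiated (horizontal axis) and differentiating (vertical axis) MSCs for the 33 tested Hox genes, with standard errors; genes with an adjusted p under 0.05 in either state are named without the prefix Hox. The 6 HoxB genes lie together at the lower left, HoxD genes lie mostly at the upper right, and of the named genes *Hoxa9*, *Hoxa10*, *Hoxd8*, *Hoxc8*, *Hoxc12* and *Hoxc13* change sign between the states.

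In HoxB, 4 of the 6 tested members were lower in KO MSCs in both states. The share of all tested genes called lower was 17.5% in undifferentiated and 22.9% in differentiating KO MSCs. *Hoxb2*, an anterior gene best known from the hindbrain, was at 2.14 and 2.28 RPKM in undifferentiated WT, at 1.61 and 1.67 RPKM in undifferentiated KO, 0.731 and 0.872 RPKM in differentiating WT and 0.459 and 0.439 RPKM in differentiating KO MSCs. The 4 groups did not overlap, and KO lay under WT in each state, with log2 fold changes of -0.41 ± 0.10 (SE, adjusted p = 0.025, limma) before and -0.71 ± 0.10 (adjusted p = 0.0034, limma) after induction. Of all tested genes, 36.9% had both KO libraries under both WT libraries in undifferentiated and 37.1% in differentiating MSCs. Both lay above for 34.8% and 33.8%. *Hoxb9*, the posterior HoxB gene next to the gap in the cluster, stood before induction at 1.39 and 1.498 RPKM in WT and at 1.03 and 0.904 RPKM in KO MSCs, and at 0.931 and 0.763 RPKM in differentiating WT and 0.540 and 0.444 RPKM in differentiating KO. Its groups did not overlap within a state, and it was lower in KO by -0.53 ± 0.14 (adjusted p = 0.03, limma) and -0.68 ± 0.14 (adjusted p = 0.011, limma). *Hoxb7*, a central gene, stood at 0.592 and 0.567 RPKM in undifferentiated WT against 0.331 and 0.378 RPKM in KO, and at 0.643 and 0.547 RPKM against 0.391 and 0.398 RPKM after induction; its log2 fold changes were -0.58 (adjusted p = 0.015, limma) and -0.49 (adjusted p = 0.021, limma). *Hoxb3* differed by -0.53 (adjusted p = 0.045, limma) and -0.57 (adjusted p = 0.03, limma). *Hoxb4*, known from blood stem cells, had -0.48 and -0.29 and did not pass in either state, with 0.826 and 0.824 RPKM in WT and 0.605 and 0.520 RPKM in KO MSCs before induction. *Hoxb6* had -0.32 and -0.52 and did not pass. Over 17 other settings the *Hoxb3* call was lost in 11 before and 8 after induction (adjusted p up to 0.16, limma) and that of *Hoxb2* in 4 and 0.

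The HoxB sum followed the same order, with 6.24 ± 0.317 RPKM in undifferentiated WT, 4.32 ± 0.0418 RPKM in undifferentiated KO, 3.58 ± 0.00900 RPKM in differentiating WT and 2.24 ± 0.00333 RPKM in differentiating KO MSCs (SD, n = 2). Over 17 other settings, 4 to 6 tested HoxB members were negative in undifferentiated MSCs, at most 1 was positive, and 0 to 4 passed as lower; none passed without undifferentiated WT replicate 1, WT replicate 2 or KO replicate 1, and 2 passed without KO replicate 2. In differentiating MSCs no member was positive in any setting and 1 to 4 passed; 1 passed without differentiating WT replicate 1 or KO replicate 2, and 2 without KO replicate 1. Leukocyte markers moved with genotype too. In undifferentiated KO MSCs 5 of 10 tested were lower and 2 higher, against 17.5% and 14.7% of all tested genes. In differentiating KO MSCs 8 were lower and 2 higher, against 22.9% and 17.8%. With induction in WT MSCs 8 of 10 rose and 2 fell, against 31.6% and 32.8%. The part of these markers in the HoxB values was not tested.

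**Figure D3:**
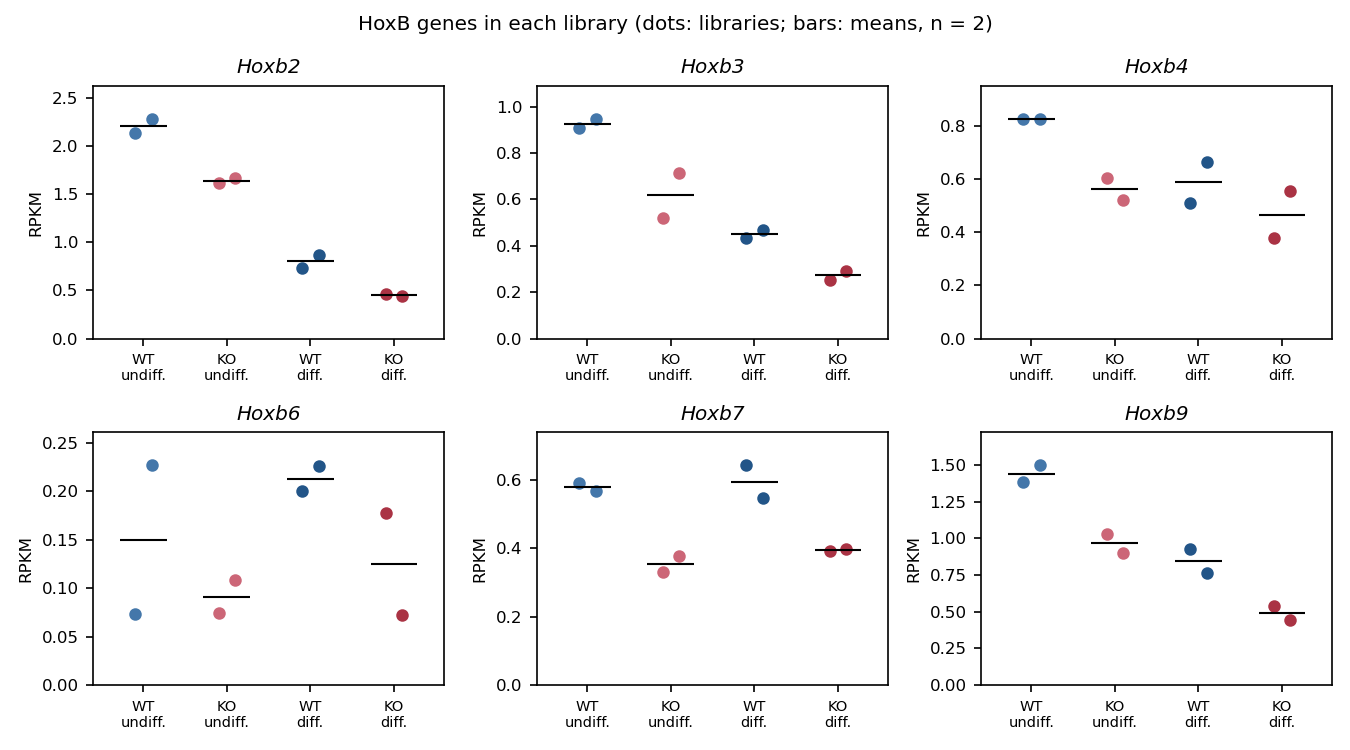
RPKM of the 6 tested HoxB genes in each library (dots) with group means (bars, n = 2), for WT and KO MSCs undifferentiated and differentiating. In *Hoxb2*, *Hoxb3*, *Hoxb7* and *Hoxb9* both KO libraries lie under both WT libraries in each state, and *Hoxb2* falls from 2.14 and 2.28 to 0.731 and 0.872 RPKM with induction in WT. Of all tested genes, 36.9% and 37.1% have KO libraries so placed in undifferentiated and differentiating MSCs.

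In HoxD, 2 of the 7 tested members were higher in undifferentiated KO MSCs and 4 in differentiating KO MSCs, and none was lower. The shares of all tested genes called higher in these states were 14.7% and 17.8%, and those called lower 17.5% and 22.9%. In undifferentiated MSCs none passed without WT replicate 2 or KO replicate 2 and 1 without WT replicate 1 or KO replicate 1, and in differentiating MSCs 2 to 4 passed when a differentiating library was left out. *Hoxd10*, a posterior limb gene, was at 1.0005 and 1.0173 RPKM in undifferentiated WT, at 1.25 and 1.44 RPKM in undifferentiated KO, 1.21 and 1.05 RPKM in differentiating WT and 1.98 and 2.01 RPKM in differentiating KO MSCs. It was the 1 HoxD member past the test in both states, with log2 fold changes of 0.38 ± 0.10 (adjusted p = 0.033, limma) and 0.77 ± 0.10 (adjusted p = 0.0028, limma). The call in undifferentiated MSCs was lost in 6 of 17 other settings (adjusted p up to 0.15, limma), and that in differentiating MSCs in none of them. *Hoxd9*, its neighbour, was, before induction, at 0.794 and 0.801 RPKM in WT and at 0.918 and 0.722 RPKM in KO, which overlapped, and at 1.24 and 0.993 RPKM in differentiating WT and 1.56 and 2.06 RPKM in differentiating KO, which did not (0.65 ± 0.18, adjusted p = 0.031, limma). This call too was lost in 6 of 17 settings (adjusted p up to 0.16, limma). *Hoxd4* was higher in undifferentiated KO by 0.78 ± 0.21 (adjusted p = 0.035, limma) and *Hoxd3* in differentiating KO by 0.77 ± 0.17 (adjusted p = 0.015, limma). These 2 genes share exon bases, and *Hoxd3* was low, between 0.115 and 0.389 RPKM. *Hoxd11* and *Hoxd13*, which pattern the distal limb, were between 0.0849 and 0.231 RPKM and passed in neither state.

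In HoxC, 3 of the 9 tested members were higher and 0 lower in undifferentiated KO MSCs, against 14.7% and 17.5% of all tested genes. In differentiating KO MSCs 1 was higher and 3 lower, against 17.8% and 22.9%. Lower there were *Hoxc8* (-0.46), *Hoxc12* (-0.70) and *Hoxc13* (-0.41) (adjusted p = 0.0034, 0.012 and 0.037, limma). *Hoxc13* was higher in undifferentiated KO (0.42, adjusted p = 0.04, limma). In each state its call was lost in 9 of 17 other settings. *Hoxc9*, a posterior trunk and limb gene, was higher in KO in both states. It stood at 5.56 and 5.98 RPKM in undifferentiated WT, at 6.63 and 6.67 RPKM in undifferentiated KO, 6.30 and 6.18 RPKM in differentiating WT and 7.36 and 7.52 RPKM in differentiating KO MSCs, with log2 fold changes of 0.20 ± 0.05 (adjusted p = 0.02, limma) and 0.25 ± 0.05 (adjusted p = 0.0084, limma). The groups were separate, as in this direction for 34.8% and 33.8% of all tested genes in undifferentiated and differentiating MSCs. The difference was small. *Hoxc10*, the highest HoxC gene, was at 7.52 and 8.06 RPKM in WT and 8.44 and 9.58 RPKM in KO MSCs before induction, and at 7.85 and 7.58 RPKM and 8.34 and 9.21 RPKM after induction. It did not pass the test in either state (0.21 and 0.18). *Hoxc6* did not pass either, with 5.55 and 6.05 RPKM in undifferentiated WT, at 6.49 and 7.21 RPKM in undifferentiated KO, 6.07 and 6.13 RPKM in differentiating WT and 5.89 and 6.97 RPKM in differentiating KO MSCs. *Hoxc5* was higher in undifferentiated KO by 0.62 ± 0.14 (adjusted p = 0.022, limma), with 1.85 and 1.46 RPKM in WT and 2.53 and 2.63 RPKM in KO. *Hoxc4* and *Hoxc11* had positive values in both states (0.31 and 0.27, 0.32 and 0.19) and passed in neither.

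The other comparison was differentiating against undifferentiated MSCs within each genotype. In WT MSCs 4 of 33 members rose and 5 fell, against a background of 31.6% and 32.8% of all genes, and 2 were DEGs, against 14.3%. In KO MSCs 10 rose and 6 fell, against 36.4% and 36.6%, and 2 were DEGs, against 22.9%. With median centring the Hox counts were 4 and 9 in WT and 8 and 6 in KO, and with quantile normalization 3 and 10 in WT and 5 and 8 in KO. Without these scalings the share of Hox genes that rose lay under that of the table in both genotypes, and the difference was not tested. With them the shares of all genes that rose or fell were not counted. With a pseudocount of 1 in place of 0.1 RPKM no member was a DEG in either genotype, and with 0.01 RPKM 4 were in WT; without undifferentiated KO replicate 2, 1 was in KO. Before induction *Hoxb2* was the highest HoxB gene, and it fell furthest of the 33 tested Hox genes, with log2 fold changes of -1.36 ± 0.10 in WT (adjusted p = 6.9e-05, limma) and -1.66 ± 0.10 in KO (adjusted p = 1.7e-05, limma). *Hoxb3* fell by 0.90 and 0.94 and *Hoxb9* by 0.71 and 0.85 on the log2 scale, in both genotypes. *Hoxb4* (-0.44 and -0.24), *Hoxb6* (0.40 and 0.20) and *Hoxb7* (0.03 and 0.12) did not pass in either genotype.

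Members that rose in both genotypes were *Hoxa7*, a central gene (0.41 and 0.44), and *Hoxd4* (0.996 and 0.680); with quantile normalization *Hoxa7* in WT and *Hoxd4* in KO did not pass (adjusted p = 0.073 and 0.12, limma). *Hoxd9* rose past 2-fold in KO MSCs (1.05 ± 0.18, adjusted p = 0.002, limma; 0.97 with median centring and 0.80 with quantile normalization), and its value in WT was 0.43 (adjusted p = 0.075, limma). The difference between those responses, 0.62, missed the threshold (adjusted p = 0.1, limma). *Hoxa13*, the most distal limb gene of HoxA, rose in KO (0.80) from 0.654 and 0.545 RPKM to 1.18 and 1.05 RPKM, with 0.54 in WT; with quantile normalization it did not pass (adjusted p = 0.076, limma). *Hoxa2*, *Hoxa3*, *Hoxa4*, *Hoxa5* and *Hoxa6*, between 0.2997 and 2.295 RPKM, passed in none of the comparisons made here. Along HoxA the log2 change with induction in KO MSCs rose with paralogue number (Spearman rho 0.745 over 11 genes that share the libraries); in WT MSCs rho was 0.255. Along HoxD the values were -0.643 in KO and -0.5 in WT over 7 genes.

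**Figure D4:**
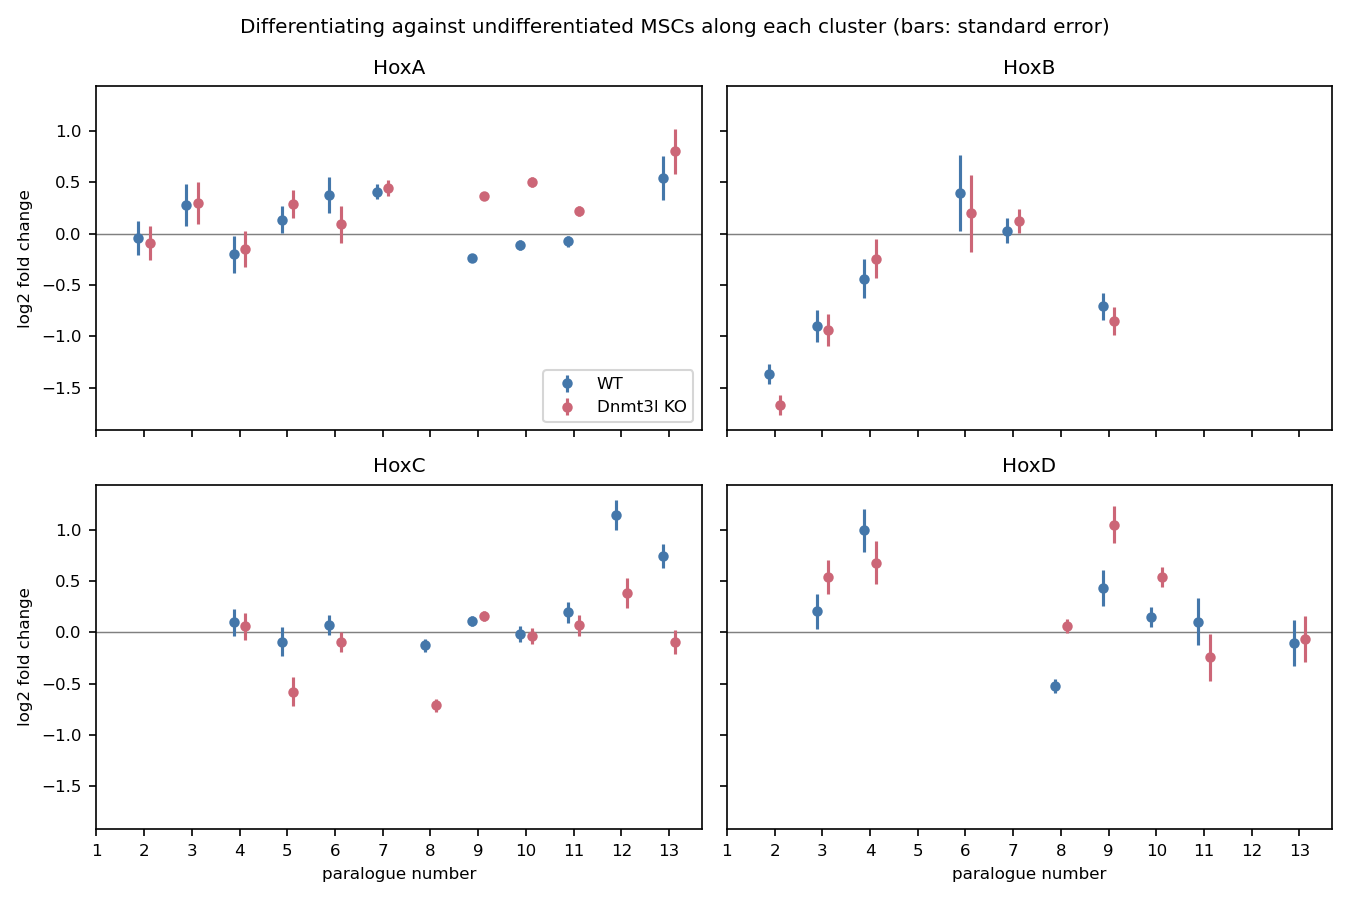
Log2 fold change of differentiating against undifferentiated MSCs, with standard errors, for the tested Hox genes by paralogue number (1 HoxA gene not shown), in WT (blue) and *Dnmt3l* KO (red) MSCs, with a panel for each cluster. In HoxA the KO points lie above 0 at 9 to 13, HoxB falls in both genotypes at 2, 3 and 9, and the WT and KO points part at *Hoxa9* to *Hoxa11*, *Hoxc8*, *Hoxc12*, *Hoxc13* and *Hoxd8*.

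The interaction test, which uses the libraries of all the comparisons above, asked where the response to induction itself differed between genotypes. It passed for 4 members with a more positive change in KO than in WT and 3 with a more negative one, against 19.4% and 20% of all genes, and none of these differences exceeded 2-fold, which 6.17% of all genes did. The 4 were *Hoxa9*, *Hoxa10*, *Hoxa11* and *Hoxd8*, and the 3 were *Hoxc8*, *Hoxc12* and *Hoxc13*; no HoxB member was among them. *Hoxa9* was at 6.94 and 7.15 RPKM in undifferentiated WT and 5.95 and 5.98 RPKM in differentiating WT, but at 6.67 and 6.48 RPKM and 8.54 and 8.44 RPKM in KO. It fell in WT (-0.24) and rose in KO (0.37), a difference of 0.60 ± 0.05 (adjusted p = 0.00099, limma). *Hoxa10* was at 19.4 and 19.1 RPKM in undifferentiated WT, 17.4 and 18.2 RPKM in differentiating WT, 14.8 and 15.3 RPKM in undifferentiated KO and 20.5 and 22.3 RPKM in differentiating KO MSCs. It was lower in KO before induction (-0.35 ± 0.05, adjusted p = 0.0048, limma) and higher after it (0.26 ± 0.05, adjusted p = 0.01, limma), and the difference in response was 0.61 ± 0.07 (adjusted p = 0.002, limma). *Hoxa11*, with which *Hoxa10* shapes the limb bones, followed with a smaller difference (0.30 ± 0.07, adjusted p = 0.025, limma), at 5.33 and 5.80, 5.31 and 5.24, 4.88 and 5.11, and 5.81 and 5.86 RPKM in the same order of groups.

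*Hoxd8* fell in WT from 8.86 and 7.98 to 6.03 and 5.66 RPKM (-0.52 ± 0.07, adjusted p = 0.00087, limma), while in KO it was at 8.12 and 7.90 RPKM before and 8.07 and 8.68 RPKM after induction, which overlapped. Its difference in response was 0.58 ± 0.10 (adjusted p = 0.0059, limma). *Hoxc8*, a gene of the thoracic region, went the other way. It was at 4.37 and 4.09 RPKM in undifferentiated WT and 3.95 and 3.78 RPKM in differentiating WT, and fell in KO from 4.78 and 4.43 to 2.86 and 2.70 RPKM (difference -0.58 ± 0.09, adjusted p = 0.0048, limma). *Hoxc12* and *Hoxc13*, the posterior end of HoxC, rose in WT and did not pass in KO. *Hoxc12* was at 1.18 and 1.40 RPKM in undifferentiated WT, 3.03 and 2.89 RPKM in differentiating WT, 1.30 and 1.39 RPKM in undifferentiated KO and 2.05 and 1.55 RPKM in differentiating KO MSCs, which gave 1.14 ± 0.14 in WT (adjusted p = 0.00076, limma), 0.38 ± 0.14 in KO (adjusted p = 0.051, limma) and a difference of -0.76 ± 0.20 (adjusted p = 0.03, limma). *Hoxc13*, known from hair and nail, went from 2.08 and 1.83 to 3.37 and 3.31 RPKM in WT and from 2.76 and 2.56 to 2.79 and 2.22 RPKM in KO, a difference of -0.84 ± 0.17 (adjusted p = 0.012, limma).

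**Figure D5:**
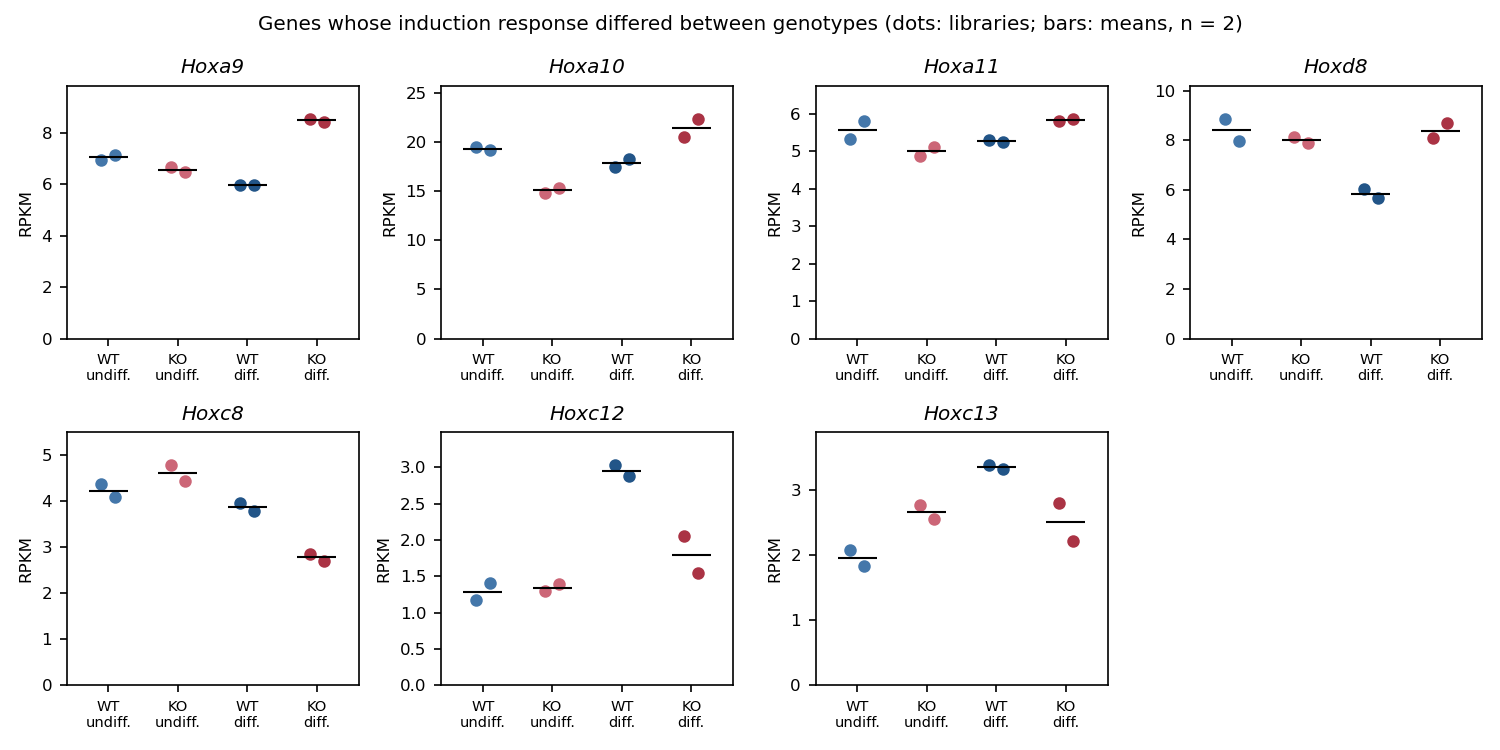
RPKM in each library (dots) with group means (bars, n = 2) for the 7 Hox genes past the interaction test. *Hoxa9*, *Hoxa10* and *Hoxa11* have their highest mean in differentiating KO MSCs, *Hoxd8* is low in differentiating WT alone, and *Hoxc12* reaches 3.03 and 2.89 RPKM in differentiating WT.

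The clusters also hold non-coding RNAs. Of 10 long non-coding RNA genes of the clusters in the table, 7 were tested, 2 were higher in undifferentiated KO and 3 in differentiating KO, and none was lower, against the 14.7% and 17.8% of all genes called higher and the 17.5% and 22.9% called lower. *Hotairm1*, at the anterior end of HoxA, stood at 28.1 to 41.6 RPKM and above every Hox gene; it fell with induction in KO (-0.41) and did not pass in WT. *Hotair*, a HoxC RNA known for its link to Polycomb, was low, at 0.443 and 0.443 RPKM in differentiating WT and 0.609 and 0.649 RPKM in differentiating KO, where it was higher (0.43). *Hoxa11os* and *Mira*, both in HoxA, were also higher in differentiating KO (0.33 and 0.24). *Mira* lies within the annotated span of *Hoxa7*, and the sharing of reads between these genes was not examined.

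MicroRNAs of the miR-10 and miR-196 families are made inside the clusters and are known to act on Hox transcripts. Their mature sequences are shown with the seeds (bases 2 to 8) in capitals. They come from RefSeq (GRCm38.p6): miR-10a on chromosome 11 in HoxB, miR-10b on chromosome 2 in HoxD, miR-196a on chromosomes 11 and 15 in HoxB and HoxC, and miR-196b on chromosome 6 in HoxA. The first 2 share a seed, and so do the other 2.
mmu-miR-10a-5p: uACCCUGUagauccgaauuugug
mmu-miR-10b-5p: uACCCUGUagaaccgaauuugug
mmu-miR-196a-5p: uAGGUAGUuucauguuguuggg
mmu-miR-196b-5p: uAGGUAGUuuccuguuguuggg

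The letters that pair with the miR-196 seed occurred in annotated 3′ ends of the transcripts of 9 of 39 Hox genes, against 6.11% of 20999 genes, and those that pair with the miR-10 seed in 4 of 39, against 12.5%. Sites of 22 bases for the miR-196 seed are shown for 3 members that passed a test above, with the seed match in capitals (mm10, strand of the gene): *Hoxb7* at chromosome 11, 96289784 to 96289805, *Hoxc8* at chromosome 15, 102992976 to 102992997 and 102993733 to 102993754, and *Hoxa9* at chromosome 6, 52223900 to 52223921.
Hoxb7: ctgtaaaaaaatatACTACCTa
Hoxc8 site 1: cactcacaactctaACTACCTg
Hoxc8 site 2: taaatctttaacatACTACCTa
Hoxa9: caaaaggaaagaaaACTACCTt

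*Hoxb7* was lower in KO in both states, *Hoxc8* lower in differentiating KO and *Hoxa9* higher there. The other members with a site are not shown, among them *Hoxa7*, which rose with induction in both genotypes. Most values of the microRNA hairpin genes were listed at 0, and they are not compared.

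Genes that act with or on Hox genes were counted from lists. Their counts stand against 14.7% of all genes higher and 17.5% lower in undifferentiated KO, 17.8% and 22.9% in differentiating KO, 31.6% risen and 32.8% fallen with induction in WT and 36.4% and 36.6% in KO. Of 9 TALE cofactors, which bind DNA together with Hox proteins, 1 was lower in undifferentiated KO (*Meis1*, -0.31) and 2 were higher in differentiating KO (*Pbx2*, 0.27, and *Meis3*, 0.18), and with induction 4 rose in WT and 7 in KO, led by *Pknox2* (1.18 and 1.20), and *Pknox1* fell in both (-0.30 and -0.26). Of 29 Polycomb genes, 10 were higher and 2 lower in undifferentiated KO, and 11 higher and 5 lower in differentiating KO. *Phf19*, a PRC2 accessory gene, was higher in undifferentiated KO (0.73) and lower in differentiating KO (-0.88), and *Cbx7*, which reads the Polycomb mark, and *Ezh1*, which writes it, were higher in differentiating KO (0.94 and 0.55). *Ezh2*, the other writer, was lower there (-0.51). A list of 16 genes held trithorax group and H3K27 demethylase genes, which keep Hox genes active, and other chromatin genes such as *Ctcf* and *Dot1l*. Of these 16, 7 were higher and 1 lower in undifferentiated KO. The H3K4 methyltransferases *Kmt2d* (1.26), *Kmt2b* (0.87) and *Kmt2a* (0.71) were at the top. In differentiating KO 1 was higher and 2 lower.

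Of 17 tested transcription factors of limb position, 7 were higher and 2 lower in undifferentiated KO and 6 higher and 1 lower in differentiating KO. *Pitx1*, the hindlimb selector, stood at 5.41 to 7.16 RPKM and *Tbx4*, its hindlimb target, at 1.45 to 3.18 RPKM, while the forelimb gene *Tbx5* was at 0.406 to 2.27 RPKM and higher in KO in both states (0.54 and 0.60). Of 6 tested genes of the signals that act on Hox clusters in the embryo, 4 were higher and 1 lower in undifferentiated KO, with the retinoic acid hydroxylase *Cyp26b1* highest (0.91) and the retinoic acid receptors *Rarg* and *Rara* at 0.42 and 0.35, and 0 passed in differentiating KO (limma), where *Gdf11* and *Rarg* had unadjusted p-values of 0.0246 and 0.0388. Of 9 tested genes next to the clusters, 1 was higher and 3 lower in undifferentiated KO and 1 higher and 1 lower in differentiating KO; *Calcoco1*, beyond HoxC, was the largest of both (-0.42 and 0.59). These lists are described by their counts beside the shares of all genes given above and were not tested as sets.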

How the data were processed

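RNA of 8 libraries of mouse bone marrow MSCs was measured, 2 in each of 4 groups taken from the labels. The authors prepared strand-specific libraries without ribosomal RNA, aligned single-end reads to mm10 (iGenomes annotation) with TopHat2 2.1.0, and computed RPKM with Cuffdiff (Cufflinks 2.2.1); they deposited an RPKM value for each gene in each of the 8 libraries. The depth was read from the spacing of low RPKM values and came to 48.5 to 67.1 M scaled reads; 74.1% of low values were whole reads within 0.05, against 10% by chance, so no count test was run. Replicates differed by more than sampling noise in every group (mean chi-square per gene 3.32 to 22.9).

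From there log2(RPKM + 0.1) was fitted in limma 3.58.1 (R 4.3.3) with 4 group means on all libraries, a variance trend and Benjamini-Hochberg adjustment over the 15342 genes that averaged at least 0.1 RPKM. Fold changes are on this scale, which understates those of low genes. DEGs are genes with an adjusted p under 0.05 and a log2 fold change beyond 1 in size. The shared replicate numbers did not pair the libraries (correlations of -0.0924 to 0.0304). The fit was tested on simulated data. Alternatives covered the pseudocount, expression minimum, scaling, variance trend, replicate block, fold limit, libraries fitted and each library left out; counts per cluster, long RNAs without hairpins or a gene outside the clusters, and leukocyte sums without *Cd34* and *Kit* were added after seeing the data.

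The values of 1 HoxA member and 1 cofactor gene are not reported here, though both stay in the counts. Members and lists were chosen with earlier results of these data known. Values of each library are given for DEGs and the 3 highest members of each cluster; other members given so were chosen after their values were seen. Of other lists, genes past the test with the largest change in a direction and genes that define a cell type are named. Promoters and microRNAs are from RefSeq (GRCm38.p6), cluster spans and transcript ends from the GENCODE annotation of mm10. Python 3.11.15, numpy 2.4.6, pandas 2.3.3 and matplotlib 3.10.9 were used.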

Additional observations from a re-analysis of the deposited data

Results flagged for a closer look

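The response to induction differed between genotypes, by the interaction test, in 7 Hox genes. The differences of KO minus WT log2 change were 0.60 for *Hoxa9*, 0.61 for *Hoxa10*, 0.30 for *Hoxa11* and 0.58 for *Hoxd8*, and -0.58 for *Hoxc8*, -0.76 for *Hoxc12* and -0.84 for *Hoxc13*. Across 16 other settings the direction held for all 7, and 5 of them kept an adjusted p under 0.05 (limma with Benjamini-Hochberg adjustment) in each, while *Hoxa11* lost the call in 5 of the 16 settings and *Hoxc12* in 6, with adjusted p up to 0.083 and 0.094 (limma).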

How the results depend on the processing

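No Hox gene called in a comparison changed sign under any alternative. With a fold limit of 1.5 in place of 2, a looser rule by construction, DEGs among Hox genes came to 2 between genotypes in undifferentiated and 6 in differentiating MSCs, 6 with induction in WT, 8 with induction in KO and 4 in the interaction. With a pseudocount of 0.01 RPKM they were 1 in differentiating MSCs and 4 with induction in WT, and with 1 RPKM 0 with induction in either genotype. Shares of all genes are not given for the settings of this section, so the Hox counts here describe only how the calls move. Fitting only the libraries compared left 7 Hox genes past the adjusted p between genotypes in differentiating MSCs. Leaving out a library in turn gave 2 to 10 genes past the adjusted p and 0 to 1 DEGs for undifferentiated KO against WT (the 1 without undifferentiated WT replicate 1), 8 to 13 and 0 for differentiating, 9 to 11 and 2 to 3 for induction in WT, 11 to 17 and 1 to 3 for induction in KO, and 5 to 8 and 0 for the interaction; where an arm has 1 library, it is assumed to vary like the others. Median centring moved the median of all genes by -0.101 for induction in WT (log2). With the replicate number as a block, 9, 13, 9, 16 and 6 Hox genes passed the adjusted p in these 5 comparisons, and *Hoxd10* in undifferentiated MSCs, *Hoxd9* in differentiating MSCs and *Hoxc12* in the interaction did not (adjusted p = 0.063, 0.056 and 0.055, limma); the numbers were not shown to mark shared cultures. Among single genes, leaving out no library, 1362 values stayed on their side of the threshold, 32 lost and 23 gained a call; with a library left out these were 1207, 91 and 22. Depth limits members near the floor of 3 reads.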
